A study of Rattus norvegicus with 6 samples.

Results

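Parietal epithelial cells (PECs) line the urinary side of Bowman's capsule. The genes described here are 6 genes named as cytoskeletal and secreted markers of these cells, Scin, Clmn, Akap12, Cdkl1, Lad1 and Dkk3, out of 14506 genes with a probeset of their own. A member was taken as its probeset with exactly 1 gene symbol and the highest mean over the arrays, and all 6 were found, on 7 probesets, since Lad1 has a second one. Expression was measured in glomeruli of male Sprague-Dawley rats that were neither treated nor cultured, with 1 Affymetrix Rat GeneChip 1.0ST array per preparation. The 3 PEC-enriched isolates were capsulated glomeruli trapped by the 90 µm sieve, and the 3 PEC-deprived isolates were decapsulated glomeruli collected on the 75 µm sieve. Preparations came from individual rats (n = 3), and the sources do not settle whether both fractions of a replicate number came from 1 rat. Neither isolate was a pure cell population. The PEC-enriched preparations also held decapsulated glomeruli, and some PEC-deprived preparations held a few capsulated ones. Tubular fragments were found among both. The labelled tissue was borne out by podocyte genes, which were bright in both isolates: Nphs1, which encodes nephrin of the slit diaphragm, averaged 12.07 ± 0.208 in the PEC-enriched arrays and 12.01 ± 0.0364 in the PEC-deprived arrays (log2 expression, SD, n = 3 arrays each).

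PECs are flat epithelial cells that rest on the capsular basement membrane and continue into the proximal tubule at the urinary pole. The genes serve different parts of such a cell. Scin encodes scinderin, a calcium-dependent protein of the gelsolin family that severs and caps actin filaments. Clmn encodes calmin, a membrane-anchored protein with calponin homology domains, the fold through which many proteins bind actin. Akap12 encodes a scaffold that tethers protein kinase A and protein kinase C near the membrane and the actin cortex. Cdkl1 encodes a kinase related to the cyclin-dependent kinases, and kinases of its family act on cilia. Lad1 encodes ladinin 1, a protein of the anchoring filaments that tie epithelia to their basement membrane. Dkk3 encodes a secreted glycoprotein of the Dickkopf family, whose founding members restrain Wnt signalling. Akap12 and Cdkl1 are therefore neither structural cytoskeletal nor secreted proteins, and the array of a whole isolate does not say which cell made a transcript.

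The mean of each of the 6 members was higher in PEC-enriched than in PEC-deprived isolates, and for all 6 every PEC-enriched array lay above every PEC-deprived array, as was the case for 9.68% of all genes. A higher mean as such was found for 44.8% of genes. The log2 differences ran from 0.41 for Dkk3 to 1.67 for Cdkl1 with a median of 1.22, against a median of -0.02 over all 14506 genes. By limma 0 of 6 members passed an adjusted p under 0.01, and 0% of all 29215 probesets did, where the lowest adjusted p was 0.152. At an unadjusted p under 0.05 limma found 6 of 6 higher, against 7.96% of all genes, and at an unadjusted p under 0.01 it found 5 of 6, against 3.12% of genes. For each single gene an exact permutation test (two-sided) gave p = 0.1, and a design with 3 arrays per group cannot go lower. A regularised Bayesian test, the kind of test that the methods name, called 4 of 6 members higher at an adjusted p under 0.01, against 1.41% of all genes. These were Clmn, Akap12, Cdkl1 and Lad1, which are also in the gene list that the study chose on these arrays, so their direction is not independent evidence. The study also reported Lad1 as higher in capsulated glomeruli by quantitative PCR on the same RNA. It detected mRNA of Lad1, Clmn and Cdkl1 in cultured mouse PECs, with the caution that culture can change expression. From a protein database it showed LAD1 and CLMN staining in PECs of human glomeruli. In bulk samples fewer cells of a type and less RNA per cell cannot be told apart.

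**Figure D1:**
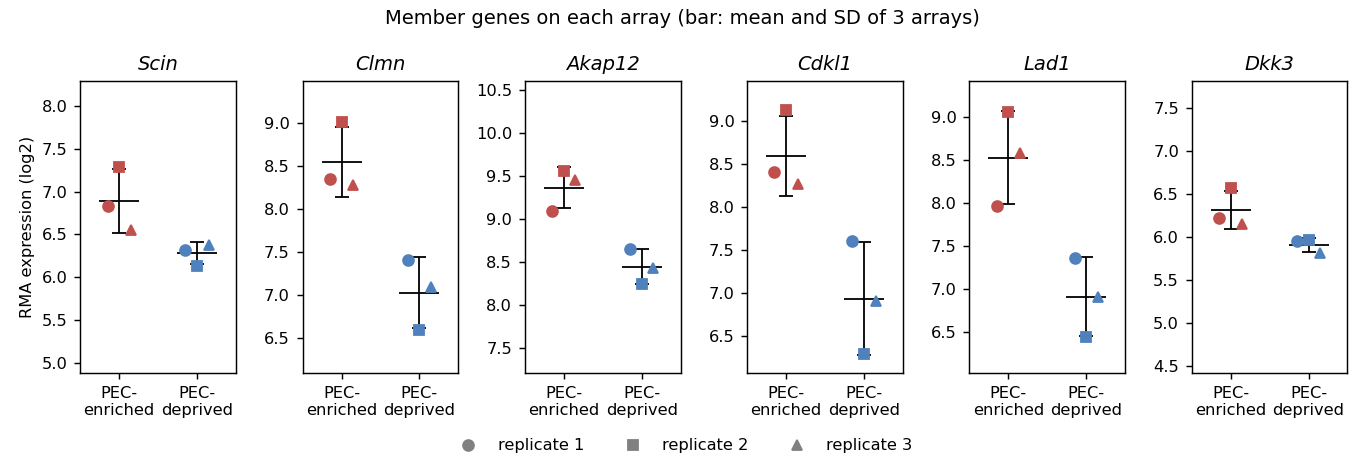
log2 RMA expression (y axis, each panel spanning the same number of log2 units) of the 6 members on each array, PEC-enriched in red and PEC-deprived in blue, with symbols for the replicate and bars for the mean and SD of 3 arrays. In every panel the lowest red point lies above the highest blue one, and PEC-enriched replicate 2 is the highest.

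Differences above 1 on the log2 scale, that is above a doubling of expression, were found for 3 of 6 members (Cdkl1, Lad1 and Clmn), against 0.965% of all genes. The 250 bases before the annotated start of these genes are shown because these 3 members had the highest differences. The sequences are those of RefSeq for assembly GRCr8, 5′ to 3′ on the strand of the gene, and capitals mark the matches to the motifs searched (GC box in Lad1 and Clmn, CCAAT box in Cdkl1).
Lad1, chr13:49801097-49801346, + strand: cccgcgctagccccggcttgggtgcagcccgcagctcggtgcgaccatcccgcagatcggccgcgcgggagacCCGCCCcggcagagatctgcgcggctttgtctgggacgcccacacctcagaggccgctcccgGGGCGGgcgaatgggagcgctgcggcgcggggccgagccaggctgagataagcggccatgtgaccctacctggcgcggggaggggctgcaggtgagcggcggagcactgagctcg
Clmn, chr6:129572028-129572277, - strand: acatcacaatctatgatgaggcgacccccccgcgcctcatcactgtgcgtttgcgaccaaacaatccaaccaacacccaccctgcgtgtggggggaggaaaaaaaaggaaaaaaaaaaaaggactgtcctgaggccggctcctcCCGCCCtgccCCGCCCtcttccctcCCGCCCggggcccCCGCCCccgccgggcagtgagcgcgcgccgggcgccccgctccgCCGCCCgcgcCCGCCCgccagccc
Cdkl1, chr6:94005195-94005444, - strand: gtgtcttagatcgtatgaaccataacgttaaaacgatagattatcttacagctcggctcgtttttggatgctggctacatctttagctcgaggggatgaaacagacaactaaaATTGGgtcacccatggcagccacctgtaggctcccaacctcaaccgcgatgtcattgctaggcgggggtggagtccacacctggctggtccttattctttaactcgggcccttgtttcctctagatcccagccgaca

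A start site was given for 5 of 6 members, and 33469 rat promoters of the same length were searched alike on both strands. The GC box GGGCGG was in 3 of 5 members (Lad1, Clmn and Akap12), against 30.5% of promoters, and Clmn held 6 matches. These letters run from -106 to -9 relative to the start in Clmn. The CCAAT box CCAAT was in 1 of 5, Cdkl1, against 34.0% of promoters. No member held the HNF1 motif GTTAAT (6.45% of promoters), the TEAD motif GGAATG (12.1%), the AP-1 motif TGANTCA (6.34%), the TATA box TATAAA (12.9%) or the E-box CACGTG (5.59%). The GC content was 74.4% in Lad1, 69.2% in Clmn and 50.0% in Cdkl1, against a median of 51.2% over all promoters. No motif searched was in the promoters of all 3 genes shown.

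Among the actin-binding members, Clmn stood at 8.35, 9.01 and 8.28 (log2 expression) on the PEC-enriched arrays of replicates 1, 2 and 3, against 7.41, 6.59 and 7.09 on the PEC-deprived arrays. The lowest PEC-enriched array was 0.87 above the highest PEC-deprived array, the widest such gap among the members. The log2 difference was 1.52 (standard error 0.248, 95% interval 0.94 to 2.09, limma adjusted p = 0.153), or 2.86-fold. Scin stood at 6.83, 7.29 and 6.55 on the PEC-enriched arrays and at 6.32, 6.13 and 6.38 on the PEC-deprived arrays. Its groups were separated by 0.18 only, and the PEC-enriched arrays ranged over 0.74. Its values on the PEC-deprived arrays and on PEC-enriched replicate 3 lay below the array medians of 6.69 to 6.75. The log2 difference of Scin was 0.61 (standard error 0.179, 95% interval 0.20 to 1.02, limma adjusted p = 0.296), or 1.53-fold.

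Akap12 had log2 values of 9.09, 9.55 and 9.45 in PEC-enriched isolates, against 8.65, 8.24 and 8.43 in PEC-deprived isolates. Its SDs were 0.24 in the PEC-enriched and 0.205 in the PEC-deprived arrays. Among the members its pooled SD within groups, 0.223, was the lowest after that of Dkk3, 0.167. The log2 difference was 0.92 (standard error 0.152, 95% interval 0.57 to 1.27, limma adjusted p = 0.153), or 1.9-fold. Cdkl1 had log2 values of 8.40, 9.12 and 8.26 in PEC-enriched isolates, against 7.60, 6.28 and 6.90 in PEC-deprived isolates. Its PEC-deprived arrays ranged over 1.32, the widest range of any member in either isolate, and PEC-deprived replicate 1 stood closest to the PEC-enriched arrays. The log2 difference of 1.67 (standard error 0.338, 95% interval 0.89 to 2.45, limma adjusted p = 0.172), or 3.18-fold, was the highest among the members.

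For Lad1 the log2 values were 7.97, 9.06 and 8.58 in PEC-enriched isolates, against 7.36, 6.44 and 6.91 in PEC-deprived isolates. The log2 difference was 1.63 (standard error 0.301, 95% interval 0.94 to 2.32, limma adjusted p = 0.166), or 3.09-fold. The second probeset of Lad1 gave log2 values of 7.80, 8.28 and 8.24 in PEC-enriched isolates, against 7.31, 6.85 and 6.79 in PEC-deprived isolates. Both probesets separated the groups with PEC-enriched replicate 2 highest and PEC-deprived replicate 1 closest to the PEC-enriched arrays, but they differed in the lowest PEC-deprived array. The second one had a log2 difference of 1.13 (standard error 0.177, 95% interval 0.72 to 1.53, limma adjusted p = 0.152).

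Dkk3, the secreted member, had log2 values of 6.22, 6.57 and 6.15 in PEC-enriched isolates, against 5.95, 5.97 and 5.81 in PEC-deprived isolates. All of these values lay below the array medians of 6.69 to 6.75. The gap between the groups was 0.19, and PEC-enriched replicate 2 stood apart from both other PEC-enriched arrays. Its log2 difference was the lowest of the members at 0.41 (standard error 0.126, 95% interval 0.12 to 0.70, limma adjusted p = 0.318), or 1.33-fold. Of all genes 4.98% had a higher difference than Dkk3 and 2.65% a higher one than Scin. For Akap12 this share was 1.17%, and only 21 genes stood above Clmn, 17 above Lad1 and 14 above Cdkl1. The intervals of Clmn, Cdkl1 and Lad1 overlap widely, as do those of Scin and Dkk3, and differences between members were not tested.

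**Figure D2:**
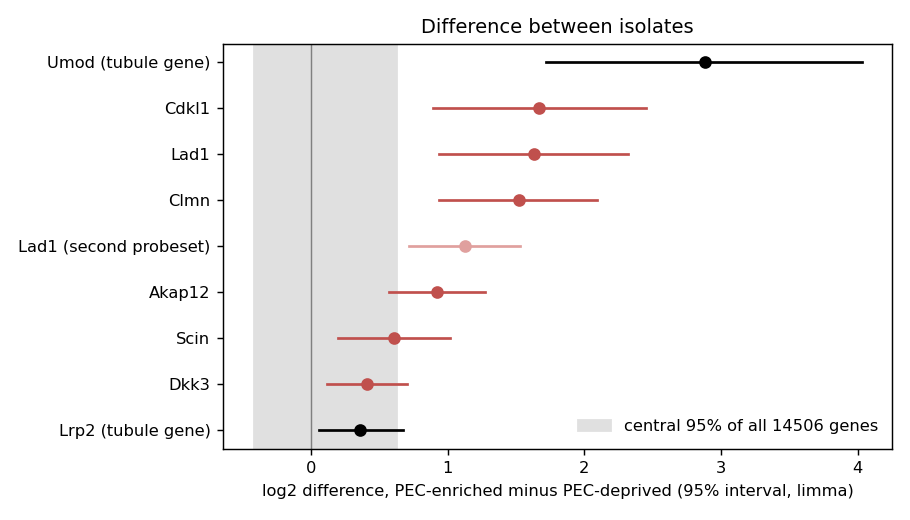
log2 differences (x axis, PEC-enriched minus PEC-deprived) of the members, the second Lad1 probeset and 2 tubule genes (y axis), with 95% intervals from limma and the central 95% of all genes in grey, -0.42 to 0.63. Dkk3 and Scin lie inside the grey band at 0.41 and 0.61, and the other members lie above it.

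The replicates of a group differed more for most members than for other genes of the same brightness. The pooled SD within groups was 0.572 for Cdkl1, above that of 98.9% of the 1332 genes within 0.25 of its mean log2 level, whose median SD was 0.134. It was 0.504 for Lad1 (above 98.4% of such genes), 0.409 for Clmn (96.6%), 0.278 for Scin (91.4%) and 0.223 for Akap12 (88.0%). For Dkk3 it was 0.167, above 62.6%. The spread had a common order. PEC-enriched replicate 2 was the highest PEC-enriched array for 6 of 6 members, against 36.7% of all genes. PEC-deprived replicate 2 was the lowest PEC-deprived array for 5 of 6, against 37.8% of genes, the exception being Dkk3, for which it was the highest. Averaged over the members, each relative to its own mean, the PEC-enriched arrays stood at 0.33, 0.95 and 0.40 and the PEC-deprived arrays at -0.26, -0.87 and -0.56 on the log2 scale.

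Since the groups of the members did not overlap, leaving out 1 array could change the size of a difference but not its direction. Without PEC-enriched replicate 2 the log2 difference of Scin was 0.41 and that of Dkk3 0.28, the lowest values for both. That of Cdkl1 was 1.34 without PEC-deprived replicate 2 and 2.00 without PEC-deprived replicate 1. Akap12 exceeded 1 only without PEC-enriched replicate 1 (1.06) or PEC-deprived replicate 1 (1.03).

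**Figure D3:**
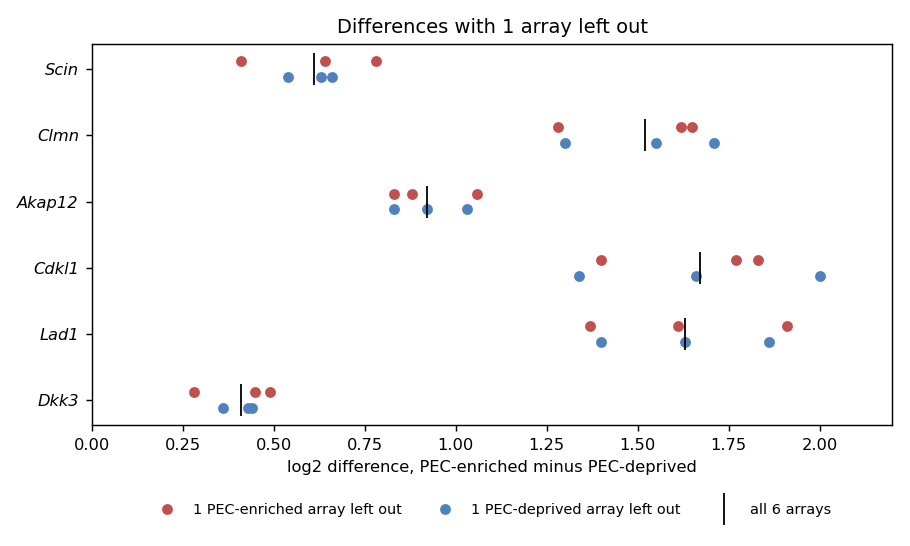
log2 differences (x axis, PEC-enriched minus PEC-deprived) of each member (y axis) with all 6 arrays (black line) and with 1 PEC-enriched (red) or 1 PEC-deprived (blue) array left out. Cdkl1 has the widest range, 1.34 to 2.00.

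Tubule genes also had higher values on the PEC-enriched arrays. Umod, which encodes uromodulin of the thick ascending limb, had log2 values of 11.92, 11.28 and 11.23 in PEC-enriched isolates, against 9.82, 7.51 and 8.48 in PEC-deprived isolates, a log2 difference of 2.88 (limma adjusted p = 0.162). Lrp2, which encodes the endocytic receptor megalin of the proximal tubule, had log2 values of 11.75, 12.23 and 12.00 in PEC-enriched isolates, against 11.72, 11.55 and 11.62 in PEC-deprived isolates, a log2 difference of 0.36 (limma adjusted p = 0.374). Like the members, Lrp2 was highest on PEC-enriched replicate 2 and lowest on PEC-deprived replicate 2, while Umod was highest on PEC-enriched replicate 1. The mean of all 16 measured proximal tubule genes was higher in PEC-enriched isolates. For 8 of 16 the groups did not overlap, against 9.68% of all genes with such a separation in this direction. The median log2 difference was 1.04, with a range of 0.25 to 1.30. Without PEC-deprived replicate 2 this median was 0.69. Their mean relative to all arrays was 0.30, 0.89 and 0.28 in PEC-enriched isolates and 0.21, -1.14 and -0.54 in PEC-deprived isolates. Of these genes 15 of 16 were highest on PEC-enriched replicate 2 and 15 of 16 lowest on PEC-deprived replicate 2, the arrays that were highest and lowest for the members. All 8 thick ascending limb genes had a higher mean too (median 1.74, range 0.30 to 2.88), and for 7 of 8 the groups did not overlap. On the PEC-deprived side 7 of 8 were lowest on replicate 2, as were 5 of 6 members. On the PEC-enriched side all 8 were highest on replicate 1, where no member was (0 of 6). The mean of that list was 1.14, 0.69 and 0.65 in PEC-enriched isolates and -0.20, -1.25 and -1.03 in PEC-deprived isolates. The part of tubule RNA in the differences of the members was not tested.

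Other markers used for PECs showed a like order of arrays. For all 15 measured genes of this list, Cldn1 and Pax2 among them, the PEC-enriched mean was the higher one, with a median log2 difference of 0.80 and a range of 0.17 (Prom1) to 1.91 (Aldh1a1). The groups did not overlap for 13 of 15. The list holds genes that the study chose on these arrays. It is not specific to PECs: in the study's immunostaining the proteins of Fras1, Aldh1a1, Cdh6 and Pax8 were seen in PECs and also in tubules. PEC-enriched replicate 2 was highest for 12 of 15 and PEC-deprived replicate 2 lowest for 10 of 15. The mean was 0.31, 0.75 and 0.43 in PEC-enriched isolates and -0.21, -0.75 and -0.53 in PEC-deprived isolates, close to that of the members on each array.

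**Figure D4:**
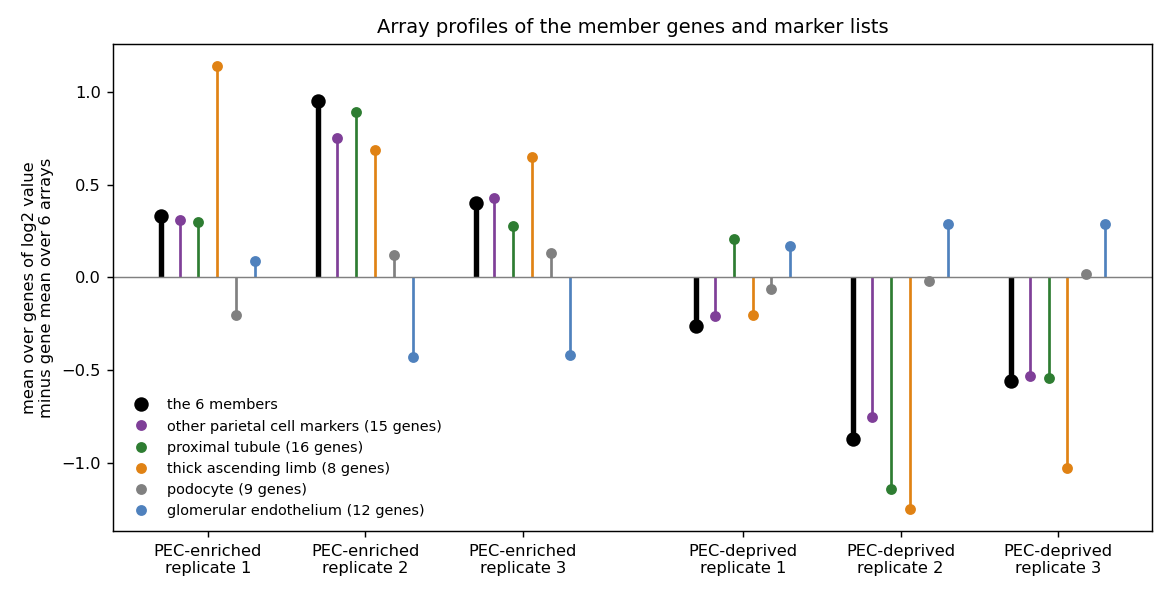
Mean over the genes of a list of the log2 value minus the mean over 6 arrays (y axis) on each array (x axis), for the members (black) and 5 marker lists. The members reach 0.95 on PEC-enriched replicate 2 and -0.87 on PEC-deprived replicate 2, and the thick ascending limb list is highest on PEC-enriched replicate 1 at 1.14.

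The remaining lists shared the order of arrays in part. PEC-enriched replicate 2 was highest for 4 of 9 podocyte, 0 of 12 endothelial, 4 of 9 mesangial and smooth muscle, 3 of 10 fibroblast and 0 of 9 leukocyte genes. PEC-deprived replicate 2 was lowest for 3 of 9 podocyte, 1 of 12 endothelial and 3 of 9 mesangial and smooth muscle genes, but for 8 of 10 fibroblast and 7 of 9 leukocyte genes. The 9 podocyte genes had a median log2 difference of 0.00 (range -0.14 to 0.41, brightest probeset Podxl), and for all 12 endothelial genes the PEC-enriched mean was the lower one (median -0.49, range -0.88 to -0.24, brightest probeset Emcn). The median was 0.02 for mesangium and smooth muscle (9 genes, -0.64 to 0.83, brightest Thy1), -0.04 for fibroblast and capsule matrix (10 genes, -0.29 to 0.37, brightest Mgp) and -0.37 for leukocytes (9 genes, -0.67 to -0.08, brightest Cd74). The leukocyte median was -0.64 without PEC-enriched replicate 1 and -0.21 without PEC-enriched replicate 2. Distal and connecting tubule genes had a median of 0.59 (6 genes, -0.08 to 2.16, brightest Slc12a3) and collecting duct genes one of 0.46 (10 genes, -0.64 to 1.21, brightest Gata3). Gata3 is in both the collecting duct list and the mesangium and smooth muscle list, and is the lowest gene of each at -0.64. For the other 9 collecting duct genes the PEC-enriched mean was the higher one. In the other lists the brightest probesets were those of Ncam1 for PEC markers, Lrp2 for the proximal tubule and Umod for the thick ascending limb.

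Each member was set beside genes of its own family or pathway. In 5 of the 6 lists the member had the highest log2 difference of its list, and the medians of the lists lay between -0.09 and 0.06. This rank is not independent evidence, since the lists were drawn up around members chosen with results of these data known. Of those members, Clmn, Akap12, Cdkl1 and Lad1 are in the study's own gene list. By limma no gene of the 16 lists passed an adjusted p under 0.01. Of the members the regularised Bayesian test called the 4 named above, and its calls among the other list genes are not given here. The study's own gene list, from a test of this kind, also holds other genes of the 16 lists, such as Pls1, Umod and Cldn1. At an unadjusted p under 0.05 limma found, beside the members, 1 gene higher in each of the gelsolin, CDKL and anchoring filament lists, 2 higher and 1 lower in the protein kinase A list, and 2 higher and 3 lower among the calponin homology genes. Of all genes 5.65% were lower at that threshold. Of the gelsolin family, 6 of 8 genes were measured. Here Vil1, which encodes villin of the brush border, stood above Scin with a log2 difference of 0.84 (standard error 0.235, limma adjusted p = 0.276). Its log2 values were 7.40, 7.89 and 7.31 in PEC-enriched isolates, against 7.11, 6.23 and 6.74 in PEC-deprived isolates. The remaining gelsolin genes ran from -0.14 for Flii to 0.14 for Gsn, whose product gelsolin also severs actin.

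Of 20 measured genes with calponin homology domains the PEC-enriched mean was higher for 6 and lower for 14 (median -0.09). After Clmn the highest was Pls1, an actin-bundling plastin of brush borders, at 0.94 (standard error 0.25, limma adjusted p = 0.251). The lowest was Lcp1, a plastin of leukocytes, at -0.49, with overlapping groups. Parvb, a parvin of focal adhesions, was at -0.48 (standard error 0.125, limma adjusted p = 0.241). The α-actinin of podocytes, Actn4, had a log2 difference of 0.03.

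Of the 7 measured CDKL and related kinases, Cdkl1 had a log2 difference of 1.67, while those of Cdkl2 and Cdkl3 were 0.00 and 0.06, and the list ran down to -0.20 for Cdk20. Of 20 A-kinase anchors and protein kinase A subunits, the PEC-enriched mean was higher for 9 and lower for 11. After Akap12 the highest was Prkar2b, a regulatory subunit, at 0.35 (standard error 0.106, limma adjusted p = 0.316), and the lowest was Akap13 at -0.26. The catalytic subunits Prkaca and Prkacb were both at -0.01.

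Dkk3 was the only one of 9 Dickkopf proteins and receptors with an unadjusted p under 0.05. Of the others, Dkk2 was the lowest at -0.37 (standard error 0.202, limma adjusted p = 0.616), with overlapping groups, and the co-receptors Lrp5 and Lrp6, which Wnt ligands use, stood at 0.05 and -0.03. Of 10 measured genes of anchoring filaments and hemidesmosomes, the PEC-enriched mean was higher for 5 and lower for 5 (median 0.02). After Lad1 the highest was Itgb4, the integrin subunit of hemidesmosomes, at 0.27 (standard error 0.104, limma adjusted p = 0.408), and the lowest was Plec, which encodes plectin, at -0.13. Col17a1, a transmembrane collagen of the same structures, was at 0.12.

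**Figure D5:**
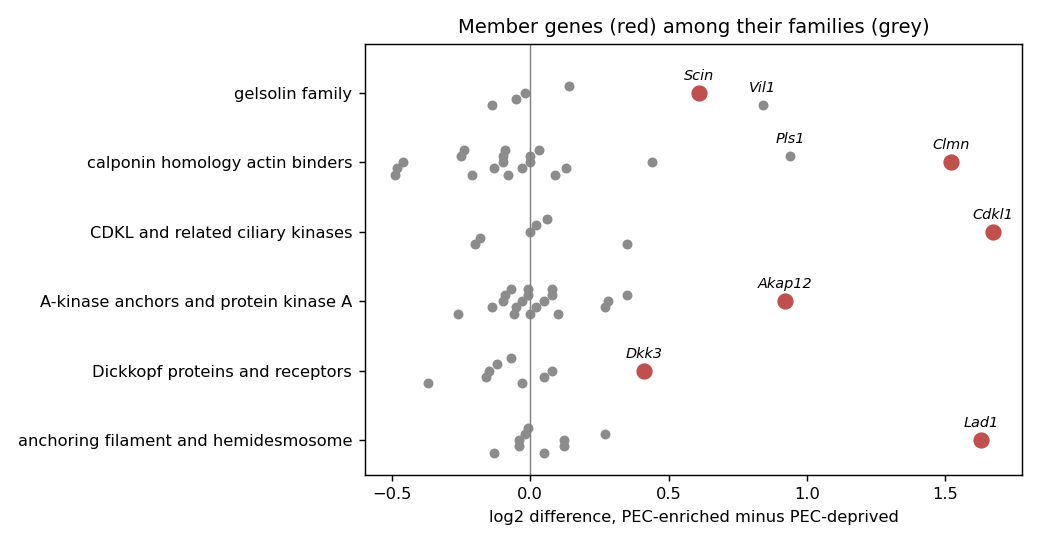
log2 differences (x axis, PEC-enriched minus PEC-deprived) of the genes of 6 families or pathways (y axis), each point 1 gene, with the members in red. The members stand at the right end of their lists except Scin, which at 0.61 lies below Vil1 at 0.84. The lists were drawn up around members chosen with results of these data known.

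For each member the genes with the most similar values were sought by the root mean square difference over the 6 arrays, each gene relative to its own mean. Nearest to Lad1 was Cdh6, a cadherin of nephron epithelium, at 0.0716, and nearest to Clmn was Fras1, a basement membrane protein, at 0.0932. Cdkl1 was nearest to Cldn2 at 0.108, followed by Plau and Epcam. Cldn2 encodes a claudin of the proximal tubule that the study also describes in PECs. Akap12 was nearest to Padi2 (0.0584), Scin to Serhl2 (0.0714) and Dkk3 to Cep70 (0.0337). The remaining genes of the nearest 3 were Kif12 and Itgb6 for Clmn, Efemp1 and Prelp for Lad1, Lypd6b and Prkcz for Akap12, Glod5 and Cyp2r1 for Scin, and Rdh10 and Ptcd3 for Dkk3. Among the members, Clmn and Cdkl1 were closest to each other (0.174) and Cdkl1 and Dkk3 farthest apart (0.754). Cdh6, Fras1 and Prelp are also in the list of other PEC markers. Genes with small differences lie close to each other by this measure, so its values are not comparable between members.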

How the data were processed

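Total RNA of 6 preparations was hybridized to 1 array each. The authors used RMA, which corrects background, normalizes by quantiles and summarizes the probes of a probeset, and the deposited values are log2 expression values, from 2.13 to 13.87, with array medians of 6.69 to 6.75. The base of the logarithm was read from this range. Quantile normalization removes differences in total RNA between arrays. No signal over background can be given, and the number of arrays limits the precision. The RMA software version was not given in the sources used here.

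Of 29215 probesets 15310 had 1 gene symbol, 323 several and 13582 none. Symbols were updated through Entrez IDs to RefSeq. limma 3.58.1 in R 4.3.3 was fitted to all probesets without a block (two-sided, Benjamini-Hochberg, adjusted p under 0.01), PEC-enriched minus PEC-deprived, and was checked on simulated data. Correlations between arrays were 0.9816 to 0.9937. The members and the 16 lists were chosen with earlier results of these data known. Beside the members, Umod and Lrp2, the genes named were, of each family list, the highest, the lowest and those with an unadjusted p under 0.01, of each cell type list the brightest, and the 3 nearest to each member. Prom1, Aldh1a1, Cldn1, Pax2, Nphs1, Gsn, Actn4, Cdkl2, Cdkl3, Prkar2b, Prkaca, Prkacb, Lrp5, Lrp6, Itgb4 and Col17a1 were named after their values were seen. Alternatives were the replicate block, an intensity trend, a regularised Bayesian test (prior weight 10), array weights, 2 filters, median centring, cyclic loess, a threshold of 0.05, the mean of a gene's probesets and single arrays left out. Python 3.11.15 and matplotlib 3.10.9 were used for the remaining steps.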

Additional observations from a re-analysis of the deposited data

How the results depend on the processing

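The number of probesets past an adjusted p under 0.01 was 0 in limma, with 3048 at an unadjusted p under 0.05, and 334 by the regularised Bayesian test, which takes 22 degrees of freedom where limma takes 8.09. Without single arrays limma called 0 to 1, the 1 probeset being called without PEC-deprived replicate 1. By the regularised test 4 of the 6 members passed, at the same log2 differences: Clmn at 1.52 (adjusted p = 0.000108), Lad1 at 1.63 (0.000124), Cdkl1 at 1.67 (0.000255) and Akap12 at 0.92 (0.000628), while Scin (0.0479) and Dkk3 did not pass. No member passed an adjusted p under 0.01 in limma under any other alternative. Where fewer features were tested the adjusted p was lower, and so were the unadjusted p and the standard errors. Over probesets with 1 gene symbol the adjusted p was 0.0409 for Clmn and Akap12. Over the mean of a gene's probesets it was 0.039 for Clmn, Akap12 and Lad1 (the last at a log2 difference of 1.38). All of these lay under a threshold of 0.05. Under the limma alternatives and the regularised test the log2 differences of the members ran from 0.28 (Dkk3, without PEC-enriched replicate 2) to 2.00 (Cdkl1, without PEC-deprived replicate 1). Over probesets above the median level Scin and Dkk3 were not tested. Median centring and cyclic loess gave a median of all genes of -0.029 and 0.001, against -0.019, and kept the groups of all 6 members apart. With the replicate number as a block limma called 0 probesets, with 3073 at an unadjusted p under 0.05. The main fit was unpaired because the methods name no pairing. Deviations of same-numbered arrays correlated at -0.0287, 0.0519 and 0.1004, and not every array correlated best with its own number. Such deviations also hold array noise, so they cannot settle whether both fractions of a number came from 1 rat. Of the list medians 5 values moved by more than the spread between arrays: that of leukocyte genes to -0.64 without PEC-enriched replicate 1, of protein kinase A genes to 0.05 without PEC-enriched replicate 3, of anchoring filament genes to 0.07 without PEC-enriched replicate 2, and of Dickkopf genes to -0.11 without PEC-enriched replicate 3 or PEC-deprived replicate 3.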
